A study of Mus musculus with 48 samples.

Results

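Chemokine ligand genes were followed in mouse liver after treatment with antisense oligonucleotides. The members were all genes of the count table whose symbol is Ccl, Cxcl, Cx3cl or Xcl followed by a number, with a letter allowed at the end, and 33 of the 23930 genes in the table met this rule. The rule uses symbols alone and no measured value. Livers had received PBS, the vehicle, or a modified gapmer oligonucleotide against Scarb1 named LX-A1656, LX-A2003 or LX-A3928, and were sampled 24 h, 72 h or 168 h after first administration. A gapmer is a short synthetic strand whose DNA-like centre, flanked by modified ends, lets RNase H cut the RNA it pairs with. These 4 treatments at 3 times made 12 groups of 4 replicates, 48 libraries in all. The 3 oligonucleotides share a target, and the 4 PBS libraries of a time serve as the control of all 3. The sources used here do not give strain, sex, age, dose, later administrations or oligonucleotide sequences. Nor do the labels tie replicates to separate animals, so the spread that p-values rest on may be technical.

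Chemokines are small secreted proteins that bind heparan sulfate and G protein-coupled receptors and direct the migration of leukocytes. Inflammatory members are made on demand by hepatocytes, macrophages, endothelium and stellate cells after signals that act through NF-kB or interferon-activated factors, and homeostatic members such as Cxcl12 are made without such signals. In the liver, Ccl2 draws monocytes through Ccr2, Cxcl1 draws neutrophils through Cxcr2, and Cxcl9, Cxcl10 and Cxcl11 draw T and NK cells through Cxcr3.

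Libraries were amplicons from 1 PCR product per gene, so levels can be compared between groups for a gene but not between genes. Levels are given as CPM, counts after each library was scaled by its size and TMM factor, and library totals ran from 8140065 to 17191129 counts with a median of 10659453. Scarb1, the target of all 3 oligonucleotides, was read to check treated groups against PBS. As a value of groups, Scarb1 does not check single libraries or which oligonucleotide was given. Its mean was 272 ± 24.2, 304 ± 9.01 and 319.6 ± 78.8 CPM with PBS at 24 h, 72 h and 168 h, and its log2 fold change against PBS lay between -6.10 and -2.50 in the 9 comparisons of an oligonucleotide with PBS, so every treated group was low. Replicate 3 of LX-A3928 at 168 h stood apart from the other 3 libraries of its group, with a chi-square per degree of freedom of 141, 232 and 228 against them where every other pair of replicates lay between 6.08 and 89.0. Its summed hepatocyte markers were 84984 CPM against 29902 to 42088 CPM in the other 3. Tests of members for LX-A3928 at 168 h are therefore given with and without it where it moves them. Sums, counts of listed genes called and receptor means for that group include it. It was the highest of the 4 for summed neutrophil (45.2 CPM), NK cell (11.3 CPM) and Kupffer cell markers (737 CPM). The same held for monocyte and macrophage markers and interferon pathway genes (both 727 CPM), but not for T, B or dendritic cell markers. Scaling by library totals alone moved the median log2 fold change of all genes against PBS by more than 0.1, to 0.27 for LX-A1656 at 72 h and to 0.56, 0.45 and 0.39 for LX-A1656, LX-A2003 and LX-A3928 at 168 h. Under that scaling 6469 genes were higher and 2303 lower with LX-A1656 at 168 h, against 4326 and 3766 with TMM factors.

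A member was called detected when its mean reached 1 CPM in at least 1 of the 12 groups, and 21 of the 33 members were. The member nearest above this limit was Cxcl17, at 1.23 CPM with LX-A1656 at 168 h, and the nearest below was Xcl1, the gene for the lymphotactin that binds Xcr1, at 0.820 CPM with LX-A3928 at 168 h. The 12 members not detected were Ccl26, which had 0 counts in all 48 libraries, and Cxcl15, Cxcl3, Ccl11, Ccl8, Ccl1, Cxcl2, Cxcl5, Ccl4, Ccl20, Ccl28 and Xcl1, whose highest group means ran from 0.0298 CPM for Cxcl15 to 0.820 CPM for Xcl1. For 8 of these 12 the highest mean was in LX-A1656 livers. The neutrophil attractants Cxcl2 and Cxcl5, ligands of Cxcr2 as Cxcl1 is, were among them at 0.513 and 0.614 CPM at most. Counts were enough for a test in 22 members, the 21 detected and Xcl1. Since a member that was low in PBS livers passed the filter only through a group where it was high, counts over the tested members describe them and are no support for a direction.

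The summed level of the 33 members was 405 ± 25.9 CPM (mean ± SD, n = 4) with PBS at 24 h, 405 ± 19.4 at 72 h and 426 ± 42.2 at 168 h. With LX-A1656 it was 421 ± 12.6 at 24 h, 1047 ± 95.8 at 72 h and 1748 ± 324 at 168 h. With LX-A2003 it was 454 ± 17.4, 468 ± 37.7 and 824 ± 56.8 CPM, and with LX-A3928 it was 454 ± 21.4, 470.2 ± 79.3 and 939 ± 538 CPM. At 24 h all 4 sums with LX-A2003 (431 to 473 CPM) and with LX-A3928 (438 to 486 CPM) were above the PBS range of 377 to 429 CPM, and those with LX-A1656 overlapped it. At 72 h all sums with LX-A1656 (934 to 1127 CPM) and with LX-A2003 (435 to 507 CPM) were above PBS at 385 to 430.0 CPM, and those with LX-A3928 overlapped it. At 168 h all sums with the 3 oligonucleotides were above PBS, and the LX-A3928 range at 168 h, 620.2 to 1743 CPM, has its top in replicate 3. Ccl9 gave the most reads of the sum with PBS, and Ccl6 with LX-A1656 at 168 h. Members whose amplicons gave many reads weigh most, so the sum describes those more than the whole family.

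A member was called changed at an adjusted p under 0.05 in edgeR's quasi-likelihood test, adjusted by the Benjamini-Hochberg method across the 12672 genes tested. Statements that libraries of groups do or do not overlap describe those libraries and are no test. A gap between groups of 4 can arise by chance, and no share of all genes with such a gap is given. At 24 h, 0 of 22 tested members were called with LX-A1656, where 2.86% of all genes were called, 2 had an unadjusted p under 0.05 and DESeq2 called 0. At 24 h LX-A2003 had 1 member called, Cxcl1, against 2.09% of all genes. At 24 h LX-A3928 had 0 called against 3.26% of all genes, with 3 at an unadjusted p under 0.05 and 1, Cxcl1, by DESeq2. At 72 h LX-A1656 had 14 members higher and 1 lower, where 24.7% of all genes were higher and 23.4% lower. At 72 h LX-A2003 had 4 higher and 1 lower (5.48% and 6.55% of all genes), and LX-A3928 had 3 higher and 1 lower (4.47% and 5.33%). At 168 h LX-A1656 had 15 higher and 1 lower (34.1% and 29.7%), LX-A2003 16 higher and 3 lower (29.8% and 25.3%), and LX-A3928 15 higher and 1 lower (27.3% and 20.7%). The same shares of all genes apply to the counts of listed marker, receptor and pathway genes given below. Cxcl12 was the member that fell in every comparison at 72 h and 168 h. The median log2 fold change of the tested members, with those at 0 counts in a group set at their bound, was 2.51, 0.80 and 0.45 at 72 h and 2.52, 1.98 and 2.02 at 168 h for LX-A1656, LX-A2003 and LX-A3928, beside medians of all genes from 0.02 to 0.10. The 72 h medians leave out 1 member with LX-A2003 and 2 with LX-A3928, which had 0 counts in a group and too few counts for a bound. In bulk tissue, fewer or more cells of a type and less or more RNA per cell cannot be told apart.

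**Figure D1:**
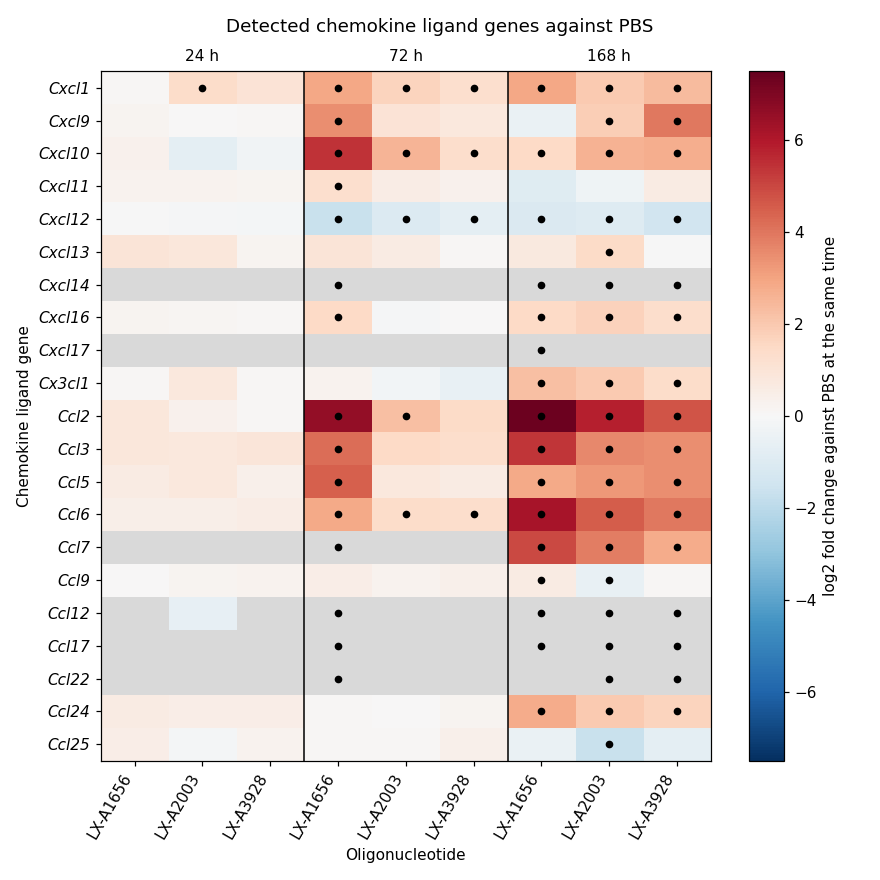
Log2 fold change of the 21 detected members (rows) in the 9 comparisons of an oligonucleotide with PBS at the same time (columns), with dots on members called at an adjusted p under 0.05 and grey where a group held 3 counts or fewer, so that no fitted fold is shown. Colour is sparse at 24 h, strong for LX-A1656 at 72 h and present for all 3 oligonucleotides at 168 h, with Cxcl12 low throughout the later times.

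Cxcl1 was the only member called at 24 h. It encodes an ELR-motif chemokine that attracts neutrophils through Cxcr2. PBS livers at 24 h held 12.4, 14.3, 12.9 and 10.7 CPM in replicates 1 to 4, and LX-A2003 livers held 46.6, 16.2, 30.8 and 37.9 CPM. All 4 LX-A2003 libraries lay above all 4 PBS libraries, replicate 2 closely. The log2 fold change was 1.38 ± 0.316 (adjusted p = 0.00872) (± SE, 4 libraries per group), and without replicate 1 of LX-A2003 it was 1.17 (adjusted p = 0.0557), past the threshold no longer. LX-A3928 livers at 24 h held 18.4, 22.5, 33.2 and 28.1 CPM, also all above PBS, with a log2 difference of 1.02 (95% interval 0.38 to 1.66, adjusted p = 0.0626). DESeq2 called that difference (adjusted p = 0.0302), as did edgeR with only the 8 libraries compared (adjusted p = 0.000492). LX-A1656 livers at 24 h held 12.6, 15.0, 12.5 and 14.1 CPM and overlapped PBS, with a log2 difference of 0.11 (95% interval -0.55 to 0.76, adjusted p = 0.963).

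At 72 h Cxcl1 stood at 20.2, 15.7, 19.5 and 15.7 CPM in PBS livers and at 119, 162, 144 and 100.3 CPM with LX-A1656. It stood at 30.5, 61.5, 61.0 and 73.1 CPM with LX-A2003 and at 32.4, 63.7, 41.7 and 34.8 CPM with LX-A3928. Every treated library was above every PBS library, and the LX-A1656 libraries were above those of both other oligonucleotides. Cxcl1 rose by 2.88 ± 0.321 (adjusted p = 4.16e-10), 1.67 ± 0.312 (adjusted p = 0.000105) and 1.28 ± 0.311 (adjusted p = 0.00398) on the log2 scale after LX-A1656, LX-A2003 and LX-A3928.

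At 168 h the PBS libraries held 17.2, 32.0, 19.2 and 8.63 CPM of Cxcl1. LX-A1656 libraries held 159, 94.9, 121 and 196 CPM, LX-A2003 libraries 60.2, 126, 70.6 and 45.0 CPM and LX-A3928 libraries 86.3, 121, 123 and 75.0 CPM. Again no treated library overlapped PBS, while the 3 oligonucleotides overlapped each other. The rises were 2.88 ± 0.321 (adjusted p = 1.89e-10), 1.96 ± 0.313 (adjusted p = 9.93e-07) and 2.39 ± 0.316 (adjusted p = 3.17e-08). Of the 10 neutrophil markers listed, 6 were tested. At 24 h edgeR called 0 of the 6 with each oligonucleotide, yet their summed level was 8.49 to 12.2 CPM with LX-A2003, wholly above PBS at 4.96 to 7.13 CPM, where LX-A1656 (3.22 to 6.10 CPM) and LX-A3928 (4.51 to 7.82 CPM) overlapped PBS. At 72 h 4, 0 and 0 of the 6 rose, and the sums were 4.88 to 6.70 CPM with PBS, 18.7 to 22.5 after LX-A1656, 5.52 to 9.74 after LX-A2003 and 6.75 to 15.4 after LX-A3928. At 168 h 6, 2 and 4 of these rose after LX-A1656, LX-A2003 and LX-A3928, among them Retnlg and Csf3r in each. Of all genes 34.1%, 29.8% and 27.3% were higher there, so the LX-A2003 count was near its share. The summed level of the markers at 168 h was 4.86 to 6.59 CPM with PBS, 23.2 to 44.7 after LX-A1656, 11.0 to 17.9 after LX-A2003 and 10.1 to 45.2 after LX-A3928, with Ly6g at 0 counts in the PBS group. The LX-A3928 top was replicate 3, beside 10.1, 13.6 and 14.9 CPM. The part of neutrophils in the Cxcl1 results at the 3 times was not tested.

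Cxcl10, an interferon-inducible ligand of Cxcr3 that attracts activated T and NK cells, was high with all 3 oligonucleotides from 72 h. At 24 h its means were 7.18 ± 0.474 CPM with PBS, 8.85 ± 5.42 after LX-A1656, 4.31 ± 0.837 after LX-A2003 and 5.97 ± 1.28 after LX-A3928, with 0 of 3 comparisons called. The LX-A2003 libraries (3.16 to 4.98 CPM) all lay below PBS (6.66 to 7.81 CPM), a log2 difference of -0.74 (adjusted p = 0.209) that was called when only the 8 libraries compared were fitted (-0.76, adjusted p = 0.0295). In PBS livers at 72 h the libraries held 6.09, 4.20, 5.05 and 6.08 CPM and LX-A1656 libraries 222, 296, 194 and 201 CPM. LX-A2003 libraries held 38.9, 19.4, 39.1 and 26.0 CPM and LX-A3928 libraries 11.2, 14.4, 15.6 and 13.5 CPM. The 4 groups did not overlap at 72 h, in the order LX-A1656, LX-A2003, LX-A3928 and PBS from high to low. Cxcl10 rose by 5.41 ± 0.294 (adjusted p = 6.47e-20), 2.53 ± 0.271 (adjusted p = 1.01e-09) and 1.34 ± 0.272 (adjusted p = 0.00045).

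In PBS livers at 168 h the libraries held 4.52, 4.97, 5.25 and 3.81 CPM of Cxcl10. LX-A1656 libraries were down to 9.19, 11.5, 9.22 and 22.2 CPM, with replicate 4 the highest. LX-A2003 libraries held 24.8, 25.9, 35.5 and 26.0 CPM and LX-A3928 libraries 32.1, 28.8, 29.2 and 33.4 CPM. All treated libraries were above PBS, and all LX-A2003 and LX-A3928 libraries were above all LX-A1656 libraries, unlike the order at 72 h. The rises against PBS were 1.48 ± 0.276 (adjusted p = 9.32e-06), 2.59 ± 0.276 (adjusted p = 7.27e-11) and 2.73 ± 0.277 (adjusted p = 2.97e-11).

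Cxcl9 is a Cxcr3 ligand induced mainly by interferon gamma. Its 24 h means were 14.5 ± 2.55 CPM with PBS, 16.9 ± 4.14 after LX-A1656, 14.8 ± 1.54 after LX-A2003 and 15.6 ± 4.84 after LX-A3928. The PBS libraries at 72 h held 19.1, 14.0, 12.7 and 13.2 CPM and LX-A1656 libraries 155, 148, 215 and 137 CPM, a rise of 3.47 ± 0.413 (adjusted p = 2.87e-09) with no overlap. LX-A2003 libraries held 35.0, 24.0, 35.3 and 23.8 CPM and LX-A3928 libraries 21.2, 30.9, 22.1 and 26.7 CPM. Both groups lay above the PBS range and overlapped each other, and the log2 differences from PBS were 1.00 (95% interval 0.21 to 1.79, adjusted p = 0.0923) and 0.77 (95% interval -0.02 to 1.56, adjusted p = 0.243). Both were called when only the 8 libraries compared were fitted (adjusted p = 0.000219 and 0.0100).

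At 168 h LX-A1656 had the lowest Cxcl9 of the 3 oligonucleotides, where it had the highest at 72 h. PBS libraries held 22.4, 12.6, 10.8 and 11.7 CPM, and LX-A1656 libraries overlapped them at 4.22, 16.7, 12.2 and 7.80 CPM, a log2 difference of -0.47 (95% interval -1.28 to 0.33, adjusted p = 0.304). LX-A2003 libraries held 52.5, 44.5, 58.4 and 48.5 CPM, a rise of 1.83 ± 0.395 (adjusted p = 0.000139). LX-A3928 libraries held 146, 46.0, 548 and 141 CPM, all above PBS and very uneven, with replicate 3 the highest. The rise with LX-A3928 was 3.94 ± 0.421 (adjusted p = 2.75e-10), and without replicate 3 it was 2.95 (adjusted p = 2.51e-10).

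Cxcl11, the other Cxcr3 ligand, moved less. The RefSeq annotation used here lists this gene as a transcribed pseudogene in its assembly. At 72 h PBS libraries held 4.75, 3.75, 7.46 and 6.08 CPM and LX-A1656 libraries 11.3, 13.1, 14.9 and 13.3 CPM, all above PBS, and Cxcl11 rose by 1.25 ± 0.374 (adjusted p = 0.00486). LX-A2003 libraries held 5.52, 8.60, 10.5 and 7.54 CPM and LX-A3928 libraries 7.36, 9.84, 7.78 and 2.69 CPM, both overlapping PBS, with log2 differences of 0.55 (95% interval -0.21 to 1.32, adjusted p = 0.414) and 0.33 (95% interval -0.44 to 1.10, adjusted p = 0.687). The PBS libraries at 168 h held 0.879, 4.03, 2.42 and 6.47 CPM and LX-A1656 libraries 1.56, 2.56, 2.27 and 0.804 CPM, which overlapped. LX-A2003 libraries held 2.07, 1.30, 3.47 and 3.96 CPM and LX-A3928 libraries 5.98, 2.41, 10.1 and 3.65 CPM, likewise within or around the PBS values. The log2 differences from PBS at 168 h were -0.91 (95% interval -1.77 to -0.05, adjusted p = 0.0581), -0.35 (95% interval -1.19 to 0.49, adjusted p = 0.496) and 0.64 (95% interval -0.17 to 1.45, adjusted p = 0.192) after LX-A1656, LX-A2003 and LX-A3928. The LX-A1656 value was called by DESeq2 (adjusted p = 0.0410) and with the replicate number as a block (adjusted p = 0.0481). Without replicate 1 of PBS at 168 h it was -1.23 (adjusted p = 0.0101), without replicate 3 of PBS -1.04 (adjusted p = 0.0437) and without replicate 2 of LX-A1656 -1.13 (adjusted p = 0.0359). The LX-A3928 value was 1.11 (adjusted p = 0.0351) without replicate 4 of PBS.

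Other interferon pathway genes were also higher at these times. Of 18 genes listed, 15 were in the table and 12 were tested. At 72 h 11, 7 and 5 of the 12 rose after LX-A1656, LX-A2003 and LX-A3928, and at 168 h 8, 11 and 11 did. Irf7, an interferon-induced transcription factor, had log2 fold changes of 2.81, 1.02 and 0.89 at 72 h and 1.92, 2.20 and 2.29 at 168 h. At 24 h, when none of the Cxcr3 ligands was called, the summed level of the list was 197 to 239 CPM with PBS. It was 263 to 303 CPM after LX-A1656, wholly above PBS. After LX-A2003 and LX-A3928 it was 227 to 249 and 234 to 270 CPM, which overlapped PBS. At 72 h it was 208 to 239 CPM with PBS, 866 to 959 after LX-A1656, 340.1 to 375 after LX-A2003 and 282 to 305 after LX-A3928. At 168 h the corresponding ranges were 179.8 to 211, 399 to 478, 449 to 529 and 494 to 727 CPM. Ifng, the gene for interferon gamma, was not among the tested genes. At 72 h summed T cell markers ran 3.65 to 5.30 CPM with PBS and 6.86 to 9.54, 5.09 to 5.98 and 4.41 to 6.41 CPM after LX-A1656, LX-A2003 and LX-A3928, and summed NK cell markers ran 1.08 to 2.80 CPM and 3.47 to 5.79, 1.10 to 2.30 and 2.31 to 3.42 CPM, so that both sums were wholly above PBS with LX-A1656. Of 8 T cell markers 4 were tested, and at 72 h Cd4 and Cd3e rose after LX-A1656. At 168 h 2, 3 and 2 of them rose after LX-A1656, LX-A2003 and LX-A3928. Of 7 NK cell markers 4 were tested, Gzma and Ncr1 rose after LX-A1656 at 72 h, and 2, 3 and 3 of the 4 rose at 168 h. Summed T cell markers at 168 h ran 3.93 to 4.84 CPM with PBS and 5.31 to 10.8, 7.80 to 9.71 and 8.41 to 8.94 CPM with the oligonucleotides in the same order, and summed NK cell markers ran 1.61 to 3.01 CPM and 3.05 to 5.19, 4.97 to 8.39 and 3.32 to 11.3 CPM. Klrb1c was at 0 counts at 168 h in the PBS, LX-A2003 and LX-A3928 groups. The part of these cells in the values of the Cxcr3 ligands and of Ccl5 was not tested.

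The 250 bases before the annotated start of Cxcl10, Cxcl9 and Cxcl1 (RefSeq, GRCm38.p6) are shown because these 3 members, whose values by library at 72 h and 168 h stand above, differ in the motifs they hold. Cxcl10 is at chr5:92348890-92349139 on the minus strand, Cxcl9 at chr5:92328080-92328329 on the minus strand and Cxcl1 at chr5:90890995-90891244 on the plus strand. Capitals mark matches to the searched motifs on either strand.
Cxcl10: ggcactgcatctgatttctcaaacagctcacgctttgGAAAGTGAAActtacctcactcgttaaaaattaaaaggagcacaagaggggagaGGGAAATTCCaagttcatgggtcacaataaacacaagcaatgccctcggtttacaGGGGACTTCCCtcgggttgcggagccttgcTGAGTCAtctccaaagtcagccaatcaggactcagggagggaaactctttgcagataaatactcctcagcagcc
Cxcl9: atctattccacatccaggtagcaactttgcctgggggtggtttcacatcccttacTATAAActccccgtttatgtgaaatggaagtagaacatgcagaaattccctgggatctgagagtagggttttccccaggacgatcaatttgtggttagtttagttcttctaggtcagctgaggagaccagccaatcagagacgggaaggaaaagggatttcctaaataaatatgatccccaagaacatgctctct
Cxcl1: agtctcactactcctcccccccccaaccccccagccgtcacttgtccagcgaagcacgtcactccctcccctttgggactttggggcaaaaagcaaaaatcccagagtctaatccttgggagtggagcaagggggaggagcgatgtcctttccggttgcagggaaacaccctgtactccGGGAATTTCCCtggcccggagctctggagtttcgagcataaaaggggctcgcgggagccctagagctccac

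Motifs were searched on both strands in a window of 300 bases that also covers the bases just after the start, and positions count from 0 at the start. The motifs were the NF-kB consensus, the interferon-stimulated element core GAAANNGAAA, the AP-1 motif TGANTCA, the TATA box TATAAA and the STAT motif TTCNNNGAA. They were present in 8.46%, 3.44%, 7.81%, 13.6% and 8.30% of the 32851 promoters of that length in the table. Cxcl10 held 3 NF-kB matches, at -159 to -150 and, overlapping each other, at -104 to -95 and -103 to -94. It also held GAAAGTGAAA at -213 to -204 and TGAGTCA at -74 to -68. Cxcl1 held 2 NF-kB matches that overlap, at -71 to -62 and -70 to -61, and no match to the other motifs. Cxcl9 held no match to the NF-kB consensus or to GAAANNGAAA in this window, TATAAA at -195 to -190 and TGACTCA at 31 to 37. Of the 33 members 22 had an entry, and Ccl11, Ccl2, Ccl24, Ccl26, Ccl4, Ccl5, Ccl7, Cxcl11, Cxcl16, Cxcl17 and Cxcl5 had none. Among the other entries, Cxcl2, Cxcl3 and Ccl1, none of them detected, held 2 NF-kB matches each, and Ccl6 and Cxcl12 held no match to any of the 5 motifs. A match describes these letters and is not a site shown to be used.

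**Figure D2:**
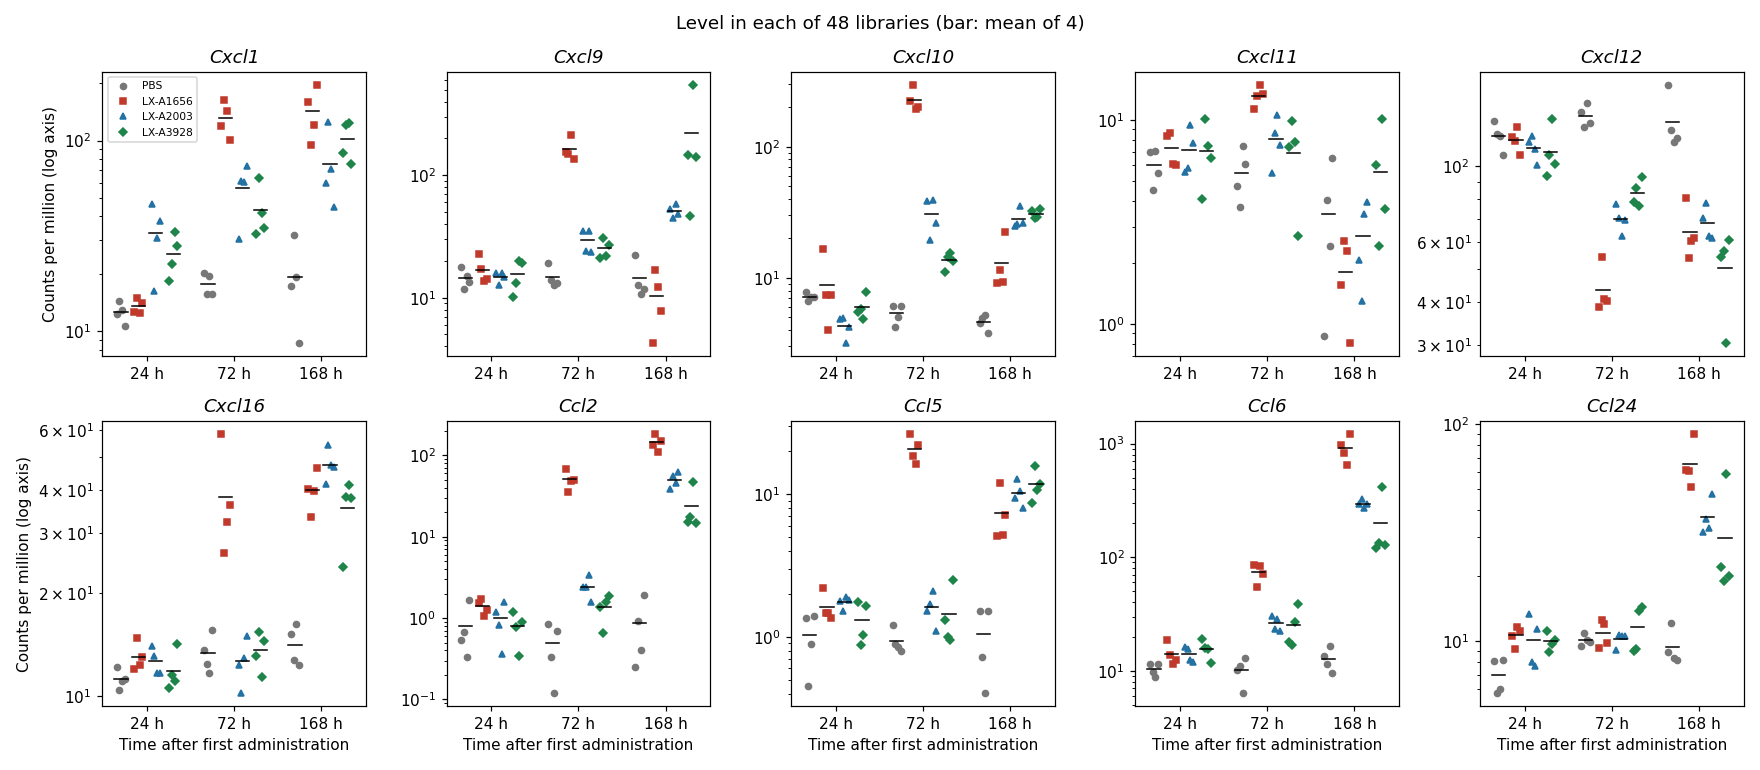
CPM (log axis) of the 10 members described in full in each of the 48 libraries, by treatment and time, with a bar at the mean of the 4 libraries of a group. With LX-A1656, Cxcl10 and Cxcl9 peak at 72 h, while Ccl6, Ccl2 and Ccl24 are highest at 168 h, and Cxcl12 is the member whose treated libraries lie below PBS at 72 h and 168 h.

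Cxcl12, the homeostatic ligand of Cxcr4 and the scavenger Ackr3, fell with every oligonucleotide from 72 h. At 24 h its means were 123 ± 11.6 CPM with PBS, 119.7 ± 9.34 after LX-A1656, 113 ± 9.29 after LX-A2003 and 110.3 ± 19.0 after LX-A3928, with 0 of 3 called. In PBS livers at 72 h the libraries held 144, 130.1, 154 and 134 CPM and LX-A1656 libraries 38.6, 54.3, 41.0 and 40.4 CPM. LX-A2003 libraries held 77.8, 70.5, 62.7 and 69.8 CPM and LX-A3928 libraries 78.4, 86.3, 76.5 and 93.3 CPM. No treated library reached the PBS range, and the LX-A1656 libraries were the lowest of all. Cxcl12 fell by 1.69 ± 0.157 (adjusted p = 1.93e-12), 1.00 ± 0.154 (adjusted p = 3.63e-06) and 0.75 ± 0.153 (adjusted p = 0.00053) on the log2 scale.

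At 168 h PBS libraries held 173, 128, 118 and 121 CPM of Cxcl12 and LX-A1656 libraries 80.8, 54.0, 60.6 and 61.6 CPM. LX-A2003 libraries held 70.5, 77.9, 62.6 and 61.9 CPM and LX-A3928 libraries 54.2, 56.5, 30.3 and 61.0 CPM, replicate 3 being the lowest. The groups did not overlap with PBS. The falls were 1.07 ± 0.154 (adjusted p = 6.72e-08), 0.98 ± 0.154 (adjusted p = 5.89e-07) and 1.41 ± 0.156 (adjusted p = 2.71e-10), and the LX-A3928 value without replicate 3 was -1.24 (adjusted p = 1.34e-09). Of 9 sinusoidal endothelium markers, 6, 5 and 5 fell at 72 h after LX-A1656, LX-A2003 and LX-A3928, Stab2 and Kdr in each, and 0 rose. Their summed level at 24 h, when Cxcl12 was not called, was 336 to 373 CPM with PBS and already lower in every treated library. It was 194 to 218 CPM after LX-A1656, 286 to 334 after LX-A2003 and 279 to 304 after LX-A3928. At 72 h it was 334 to 382 CPM with PBS, 101 to 118 after LX-A1656, 200.3 to 212 after LX-A2003 and 184 to 219.9 after LX-A3928. At 168 h it was 368 to 386 CPM with PBS and 147 to 182, 169 to 207 and 193 to 259 CPM with the oligonucleotides, with 6 markers lower in each, Lyve1 and Pecam1 higher in each and Fcgr2b higher with LX-A3928. No marker of the list was at 0 counts in these groups, and their part in the Cxcl12 result was not tested. Stellate cells also make Cxcl12. At 72 h their 8 markers summed to 455 to 490 CPM with PBS and 432 to 493 after LX-A1656. After LX-A2003 and LX-A3928 the sums were 274 to 539 and 477 to 559 CPM. At 168 h 0, 0 and 0 of the 8 fell (29.7%, 25.3% and 20.7% of all genes) and 7, 7 and 5 rose (34.1%, 29.8% and 27.3%). The part of stellate cells in the Cxcl12 result was not tested.

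Cxcl16 encodes a membrane-bound ligand that Cxcr6-bearing lymphocytes recognise. At 24 h it was not called, with means of 11.2 ± 0.717 CPM with PBS and 13.0 ± 1.24, 12.6 ± 1.18 and 11.8 ± 1.63 with the oligonucleotides. The PBS libraries at 72 h held 13.6, 12.4, 11.7 and 15.6 CPM and LX-A1656 libraries 58.4, 26.2, 32.3 and 36.3 CPM, a rise of 1.52 ± 0.177 (adjusted p = 8.76e-10). LX-A2003 libraries held 12.3, 10.2, 13.0 and 15.0 CPM and LX-A3928 libraries 13.1, 15.4, 11.4 and 14.5 CPM. Both overlapped PBS, with log2 differences of -0.08 (95% interval -0.44 to 0.28, adjusted p = 0.857) and 0.02 (95% interval -0.34 to 0.38, adjusted p = 0.963). In PBS livers at 168 h the libraries held 15.2, 12.7, 16.3 and 12.3 CPM and LX-A1656 libraries 40.5, 33.3, 39.7 and 46.7 CPM. LX-A2003 libraries held 41.7, 54.4, 47.4 and 47.0 CPM and LX-A3928 libraries 23.9, 38.3, 41.5 and 38.1 CPM, and every treated library was above PBS. The rises at 168 h were 1.51 ± 0.177 (adjusted p = 5.16e-10), 1.75 ± 0.178 (adjusted p = 1.81e-11) and 1.33 ± 0.177 (adjusted p = 2.91e-08).

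Cx3cl1, or fractalkine, is the membrane-bound ligand of Cx3cr1 on monocytes and macrophages. Its group means stayed between 0.753 and 1.46 CPM at 24 h and 72 h and 0 of 6 comparisons were called. At 168 h it stood at 0.969 ± 0.226 CPM with PBS and at 4.67 ± 1.29, 3.88 ± 1.17 and 2.52 ± 1.66 CPM after LX-A1656, LX-A2003 and LX-A3928, rises of 2.25 ± 0.443 (adjusted p = 2.28e-05), 1.98 ± 0.447 (adjusted p = 0.000214) and 1.40 ± 0.455 (adjusted p = 0.0097). LX-A3928 libraries held 1.97, 2.94, 0.608 and 4.55 CPM, replicate 3 lying below all PBS libraries. Without replicate 4 of LX-A3928 that difference was 0.97 (adjusted p = 0.0907), and with only the 8 libraries compared it was 1.40 (adjusted p = 0.0745).

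Among the monocyte attractants, Ccl2, the main ligand of Ccr2, had the largest fitted fold against PBS among members with more than 3 counts in both groups. At 24 h its means were 0.801 ± 0.586 CPM with PBS and 1.39 ± 0.291, 0.989 ± 0.524 and 0.802 ± 0.351 with the oligonucleotides, with 0 of 3 called. At 72 h PBS libraries held 0.852, 0.331, 0.120 and 0.698 CPM and LX-A1656 libraries 66.9, 35.5, 48.9 and 50.2 CPM. LX-A2003 libraries held 2.38, 2.40, 3.35 and 1.56 CPM and LX-A3928 libraries 1.37, 0.664, 1.58 and 1.86 CPM. LX-A1656 and LX-A2003 lay wholly above PBS, and LX-A3928 overlapped it in replicate 2. Ccl2 rose by 6.61 ± 0.452 (adjusted p = 2.25e-16) with LX-A1656 and 2.26 ± 0.526 (adjusted p = 0.00196) with LX-A2003, and its log2 difference with LX-A3928 was 1.43 (95% interval 0.27 to 2.58, adjusted p = 0.113). DESeq2 called the latter (adjusted p = 0.0427).

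The PBS libraries at 168 h held 0.251, 0.931, 0.404 and 1.90 CPM of Ccl2 and LX-A1656 libraries 135, 181, 110.3 and 149 CPM. LX-A2003 libraries held 38.5, 55.6, 45.1 and 61.6 CPM and LX-A3928 libraries 15.3, 17.6, 46.7 and 14.7 CPM. No treated library came near PBS, and in LX-A3928 replicate 3 was well above the other 3. The rises were 7.34 ± 0.433 (adjusted p = 5.57e-19), 5.82 ± 0.423 (adjusted p = 1.57e-15) and 4.71 ± 0.423 (adjusted p = 1.28e-12), the last being 4.16 (adjusted p = 6.99e-13) without replicate 3. Without replicate 4 of PBS, the highest PBS library, they were 7.99 (adjusted p = 7.99e-18), 6.47 (adjusted p = 1.1e-14) and 5.37 (adjusted p = 3.7e-12).

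Ccl7 and Ccl12, further Ccr2 ligands, were near absent in PBS livers. Ccl7 had 0 counts with PBS at 72 h and a mean of 2.16 ± 1.26 CPM with LX-A1656, at least 25.5-fold higher against a floor of 3 counts over the group. At 168 h Ccl7 had 5 counts with PBS and means of 5.11 ± 1.57, 2.35 ± 0.680 and 1.20 ± 0.958 CPM after LX-A1656, LX-A2003 and LX-A3928, rises of 4.97 ± 0.617 (adjusted p = 3.32e-09), 3.86 ± 0.647 (adjusted p = 2.61e-06) and 2.81 ± 0.698 (adjusted p = 0.000898). The LX-A3928 rise was 2.22 (adjusted p = 0.00856) without replicate 3. Without replicate 4 of PBS the 3 rises were 5.81 (adjusted p = 1.34e-08), 4.70 (adjusted p = 4.07e-06) and 3.65 (adjusted p = 0.000579). Ccl12 had 1 count with PBS at 72 h and was higher with LX-A1656 by a ratio of 24.8 (95% interval 4.15 to 1008), where intervals of ratios cover counting error only. At 168 h, with 3 PBS counts, all in replicate 4, its ratios to PBS were 21.5 (95% interval 7.17 to 106), 15.2 (95% interval 4.98 to 75.3) and 7.99 (95% interval 2.52 to 40.6), all 3 called. With only the 8 libraries compared the LX-A3928 difference of Ccl12 missed the threshold (adjusted p = 0.0523), and without replicate 3 of LX-A3928 it was called (adjusted p = 0.0362). Reads of these neighbouring and similar genes could not be checked for assignment between them.

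The monocyte and macrophage markers were higher in the same groups. Of 11 listed, 9 were in the table and 8 were tested. At 72 h 7, 1 and 1 of the 8 rose after LX-A1656, LX-A2003 and LX-A3928, Lyz2 in each, and at 168 h all 8 rose with each. Their summed level at 72 h was 140.1 to 150.1 CPM with PBS, 300.3 to 499 after LX-A1656, 169 to 191 after LX-A2003 and 141 to 220.4 after LX-A3928. At 168 h it was 145 to 186, 1086 to 1669, 666 to 921 and 489.8 to 727 CPM. Ms4a7 was at 0 counts with LX-A3928 at 72 h. Their part in the Ccl2, Ccl7, Ccl6, Ccl3 and Ccl24 results was not tested.

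Ccl5, or RANTES, a ligand of Ccr1 and Ccr3 that T and NK cells and macrophages make, was called with LX-A1656 at 72 h and with all 3 oligonucleotides at 168 h. Its 24 h means were 1.02 ± 0.444 CPM with PBS, 1.62 ± 0.385 after LX-A1656, 1.75 ± 0.159 after LX-A2003 and 1.32 ± 0.432 after LX-A3928, with 0 of 3 called, although all LX-A2003 libraries (1.53 to 1.90 CPM) lay above PBS (0.451 to 1.40 CPM). In PBS livers at 72 h the libraries held 1.22, 0.883, 0.842 and 0.797 CPM and LX-A1656 libraries 26.2, 18.4, 16.2 and 22.2 CPM, a rise of 4.46 ± 0.332 (adjusted p = 1.81e-15) with no overlap. LX-A2003 libraries held 1.52, 1.70, 2.10 and 1.10 CPM and LX-A3928 libraries 1.31, 0.995, 0.946 and 2.49 CPM, both overlapping PBS, with log2 differences of 0.80 (95% interval 0.05 to 1.55, adjusted p = 0.179) and 0.62 (95% interval -0.15 to 1.38, adjusted p = 0.364). At 168 h PBS libraries held 1.51, 0.724, 0.404 and 1.52 CPM and LX-A1656 libraries 5.11, 11.9, 5.19 and 7.15 CPM. LX-A2003 libraries held 9.38, 12.7, 10.5 and 7.92 CPM and LX-A3928 libraries 8.63, 15.7, 10.7 and 11.8 CPM. All treated libraries were above PBS and the 3 oligonucleotides overlapped. The rises were 2.82 ± 0.332 (adjusted p = 5.36e-10), 3.27 ± 0.331 (adjusted p = 1.65e-11) and 3.49 ± 0.330 (adjusted p = 4.28e-12).

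Ccl3 encodes a macrophage-derived ligand of Ccr1. With LX-A1656 it held 2.87, 2.54, 3.10 and 2.37 CPM at 72 h against 0.122, 0.221, 0.120 and 0.0997 CPM with PBS, a rise of 4.17 ± 0.555 (adjusted p = 2.26e-08). At 168 h its means were 0.204 ± 0.236 CPM with PBS and 8.98 ± 0.939, 2.68 ± 0.503 and 2.51 ± 0.568 CPM after LX-A1656, LX-A2003 and LX-A3928, with rises of 5.34 ± 0.495 (adjusted p = 6.64e-13), 3.59 ± 0.526 (adjusted p = 1.56e-07) and 3.49 ± 0.530 (adjusted p = 4.38e-07). No treated library at 168 h overlapped PBS. PBS replicates 1 and 4 had 0 counts, and without replicate 2 of PBS the rises were 6.00 (adjusted p = 1.13e-11), 4.25 (adjusted p = 4.5e-07) and 4.15 (adjusted p = 1.16e-06). Ccl4, the close relative of Ccl3, reached 0.650 CPM at most and was not tested.

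Ccl6, a rodent chemokine of macrophages and other myeloid cells that binds Ccr1, reached the highest level of its own range at 168 h. At 24 h its means were 10.4 ± 1.36 CPM with PBS and 14.1 ± 3.27, 14.0 ± 2.03 and 15.5 ± 2.97 with the oligonucleotides, with 0 of 3 called, although the LX-A2003 libraries (12.1 to 16.0 CPM) and LX-A3928 libraries (11.6 to 18.9 CPM) lay above PBS (8.80 to 11.6 CPM), LX-A3928 closely. With only the 8 libraries compared, the LX-A3928 difference was called (0.57, adjusted p = 0.0306). The PBS libraries at 72 h held 10.1, 11.0, 6.37 and 13.1 CPM and LX-A1656 libraries 85.4, 54.8, 84.0 and 71.5 CPM. LX-A2003 libraries held 30.2, 23.1, 28.7 and 22.3 CPM and LX-A3928 libraries 18.1, 16.9, 27.1 and 38.8 CPM. Every treated library was above PBS, and LX-A1656 was above the other 2. Ccl6 rose by 2.86 ± 0.295 (adjusted p = 4.98e-11), 1.36 ± 0.289 (adjusted p = 0.000693) and 1.31 ± 0.290 (adjusted p = 0.00144).

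In PBS livers at 168 h the libraries held 13.4, 11.5, 16.6 and 9.52 CPM of Ccl6 and LX-A1656 libraries 981, 829.9, 643 and 1206 CPM. LX-A2003 libraries held 294, 327, 272 and 294 CPM and LX-A3928 libraries 119, 133, 415 and 128 CPM. The LX-A1656 libraries lay above all others, and replicate 3 of LX-A3928 was above all LX-A2003 libraries while its other 3 replicates were below them. The rises were 6.17 ± 0.334 (adjusted p = 3.33e-20), 4.54 ± 0.312 (adjusted p = 2.6e-16) and 3.96 ± 0.305 (adjusted p = 1.47e-14), and the LX-A3928 rise without replicate 3 was 3.32 (adjusted p = 4.47e-16).

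Ccl9, a further Ccr1 ligand of myeloid cells, was already plentiful with PBS and changed little, in different directions. The PBS libraries at 168 h held 197, 238, 181 and 199 CPM and LX-A1656 libraries 359, 324, 265 and 285 CPM, a rise of 0.60 ± 0.230 (adjusted p = 0.0216). That call was lost without replicate 3 of PBS (adjusted p = 0.0577) or replicate 1 of LX-A1656 (adjusted p = 0.0670). LX-A2003 libraries held 128, 116, 136 and 165 CPM, all below PBS, and Ccl9 fell by 0.58 ± 0.230 (adjusted p = 0.0303). This fall was lost without replicate 2 of PBS (adjusted p = 0.0906), without replicate 1, 2 or 3 of LX-A2003 (adjusted p = 0.0669, 0.0867 and 0.0529) and with scaling by library totals alone (-0.16, adjusted p = 0.538). LX-A3928 libraries held 197, 128, 408 and 125 CPM, a log2 difference of 0.07 (95% interval -0.39 to 0.54, adjusted p = 0.814), which was -0.44 (adjusted p = 0.0589) without replicate 3. At 72 h LX-A1656 libraries held 120.5, 288, 307 and 304 CPM against 194, 185, 150.2 and 185 CPM with PBS, a log2 difference of 0.51 (95% interval 0.05 to 0.98, adjusted p = 0.0615). Replicate 1 was below PBS there, and without it Ccl9 rose by 0.75 (adjusted p = 0.00441), as it did by 0.74 (adjusted p = 0.00425) with scaling by library totals alone.

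Ccl24, or eotaxin-2, attracts eosinophils through Ccr3 and is made by macrophages. It was called in comparisons with PBS at 168 h only. Its 24 h means were 7.00 ± 1.29 CPM with PBS, 10.6 ± 1.04 after LX-A1656, 10.1 ± 2.72 after LX-A2003 and 9.96 ± 0.933 after LX-A3928, with 0 of 3 called. The LX-A1656 libraries (9.16 to 11.5 CPM) and the LX-A3928 libraries (8.90 to 11.1 CPM) lay above PBS at 24 h (5.75 to 8.15 CPM). The log2 differences of the 3 oligonucleotides at 24 h, in the order of the means above, were 0.60, 0.52 and 0.51 (adjusted p = 0.264, 0.365 and 0.334). At 72 h PBS libraries held 9.50, 10.8, 10.1 and 9.87 CPM and LX-A1656 libraries 9.29, 12.5, 11.9 and 9.78 CPM. LX-A2003 libraries held 9.09, 10.7, 10.5 and 10.5 CPM and LX-A3928 libraries 8.98, 9.18, 13.7 and 14.3 CPM. All groups overlapped, and the log2 differences were 0.11 (95% interval -0.38 to 0.60, adjusted p = 0.745), 0.02 (95% interval -0.47 to 0.51, adjusted p = 0.981) and 0.19 (95% interval -0.30 to 0.68, adjusted p = 0.72).

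At 168 h PBS libraries held 8.92, 12.1, 8.34 and 8.12 CPM of Ccl24 and LX-A1656 libraries 61.4, 60.6, 51.0 and 89.5 CPM. LX-A2003 libraries held 31.7, 36.5, 33.1 and 47.5 CPM and LX-A3928 libraries 22.0, 18.8, 58.9 and 20.0 CPM. All treated libraries lay above PBS, and replicate 3 of LX-A3928 lay among the LX-A1656 values. The rises were 2.80 ± 0.248 (adjusted p = 1.59e-13), 1.98 ± 0.243 (adjusted p = 2.67e-09) and 1.66 ± 0.243 (adjusted p = 2.18e-07), and without replicate 3 the LX-A3928 rise was 1.11 (adjusted p = 5.12e-06). Of 10 Kupffer cell markers 9 were tested, and at 168 h 6 rose with each oligonucleotide, Cd5l and Marco in each, while Timd4 fell with LX-A1656. Their summed level at 168 h was 268 to 317 CPM with PBS, 527 to 825 after LX-A1656, 582 to 772 after LX-A2003 and 484 to 737 after LX-A3928, with C1qa at 0 counts in the PBS group. At 72 h it was 248 to 274 CPM with PBS and 226 to 251.2, 284 to 309 and 253 to 380.3 CPM. Their part in the Ccl24, Ccl6 and Ccl9 results was not tested.

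Ccl17 and Ccl22 are the 2 ligands of Ccr4, made mainly by dendritic cells and macrophages, and they differed in where they were high. Ccl17 had 0 counts with PBS at every time. At 168 h it held 4.22, 3.16, 2.86 and 3.13 CPM with LX-A1656, at least 36.3-fold higher than PBS, and 0.965, 1.21, 1.25 and 0.873 CPM with LX-A2003, at least 11.5-fold higher. With LX-A3928 it held 0.151, 0.0753, 0.243 and 0.298 CPM, at least 2.05-fold higher, a call lost without replicate 1, 2 or 4 of PBS (adjusted p = 0.0510, 0.0589 and 0.0519), without replicate 4 of LX-A3928 (adjusted p = 0.0637) or with only the 8 libraries compared (adjusted p = 0.0637). At 72 h Ccl17 was at least 3.50-fold higher with LX-A1656, and the call was lost without replicate 1 of LX-A1656 (adjusted p = 0.0575).

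Ccl22 was highest with LX-A1656 at 72 h, at 1.91, 1.18, 1.96 and 1.26 CPM against 0.122, 0, 0 and 0.199 CPM with PBS, a ratio of 18.8 (95% interval 6.18 to 93.0). Without replicate 4 of PBS at 72 h the fitted log2 difference went from 4.06 to 4.97. At 168 h it held 0, 0.103, 0 and 0.254 CPM with PBS and 0.296, 0.298, 0.117 and 0.161 CPM with LX-A1656, a ratio of 2.39 (95% interval 0.655 to 13.0) that was not called. It held 0.896, 1.30, 1.60 and 1.48 CPM with LX-A2003 and 0.757, 0.678, 0.851 and 1.71 CPM with LX-A3928, ratios of 14.3 (95% interval 4.69 to 71.1) and 11.2 (95% interval 3.61 to 56.1), both called. Without replicate 4 of PBS the fitted log2 differences went from 3.69 to 4.70 and from 3.32 to 4.32. Thus at 168 h Ccl17 had its highest mean with LX-A1656 and Ccl22 with LX-A2003. Of 7 dendritic cell markers 5 were tested, and at 168 h 4 rose with each oligonucleotide. Their summed level ran 6.59 to 11.5 CPM with PBS and 14.2 to 27.7, 25.7 to 34.2 and 20.2 to 29.5 CPM after LX-A1656, LX-A2003 and LX-A3928, and at 72 h, where 2, 1 and 0 of the 5 rose, it ran 9.02 to 10.6 CPM with PBS and 11.9 to 18.9, 12.2 to 13.2 and 9.84 to 13.2 CPM. Their part in the Ccl17 and Ccl22 results was not tested.

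Ccl25, a ligand of Ccr9 known from thymus and small intestine, was called lower in 1 comparison with PBS. Its means were 3.93 ± 1.10 CPM with PBS at 168 h and 2.77 ± 0.223, 1.21 ± 0.775 and 2.41 ± 1.63 after LX-A1656, LX-A2003 and LX-A3928. It fell by 1.67 ± 0.354 (adjusted p = 9.26e-05) with LX-A2003. Its log2 differences with LX-A1656 and LX-A3928 were -0.50 (95% interval -1.15 to 0.16, adjusted p = 0.178) and -0.76 (95% interval -1.44 to -0.08, adjusted p = 0.0585). The LX-A3928 difference was -1.19 (adjusted p = 0.00333) without replicate 3 and -0.93 (adjusted p = 0.0265) without replicate 1 of PBS, and it was also called by DESeq2 (adjusted p = 0.0419) and with the replicate block (adjusted p = 0.0482). At 24 h and 72 h 0 of 6 comparisons of Ccl25 with PBS were called. The LX-A3928 libraries at 72 h (5.30 to 7.04 CPM) lay above PBS (4.02 to 5.17 CPM).

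The remaining detected members were the B cell attractant Cxcl13, the homeostatic Cxcl14 and the mucosal Cxcl17. Cxcl13 stood at 0.759 ± 0.354 CPM with PBS at 168 h and at 2.11 ± 0.304 with LX-A2003, a rise of 1.44 ± 0.489 (adjusted p = 0.0114). With LX-A1656 and LX-A3928 it stood at 1.31 ± 0.201 and 0.821 ± 0.601 CPM, log2 differences of 0.75 (95% interval -0.26 to 1.75, adjusted p = 0.19) and -0.01 (95% interval -1.02 to 0.99, adjusted p = 0.988), and the LX-A1656 difference was called under scaling by library totals alone (1.20, adjusted p = 0.0289). Of 6 B cell markers 3 were tested, and at 168 h Cd22 rose with each oligonucleotide while Pax5 fell with LX-A1656 and LX-A2003. Cxcl14 had 0 counts with PBS at 72 h and was at least 7.01-fold higher with LX-A1656. At 168 h it had 3 PBS counts and means of 2.49 ± 1.04, 2.02 ± 1.02 and 1.66 ± 0.299 CPM with the oligonucleotides, ratios of 26.2 (95% interval 8.80 to 129), 21.4 (95% interval 7.10 to 105) and 18.7 (95% interval 6.18 to 92.6), all called. Without replicate 3 of PBS the fitted log2 differences went from 4.59, 4.28 and 4.03 to 5.61, 5.31 and 5.05. Cxcl17 was called in 1 comparison, LX-A1656 at 168 h, with 0.741, 1.01, 1.17 and 2.01 CPM against 2 PBS counts, a ratio of 19.8 (95% interval 5.29 to 167).

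**Figure D3:**
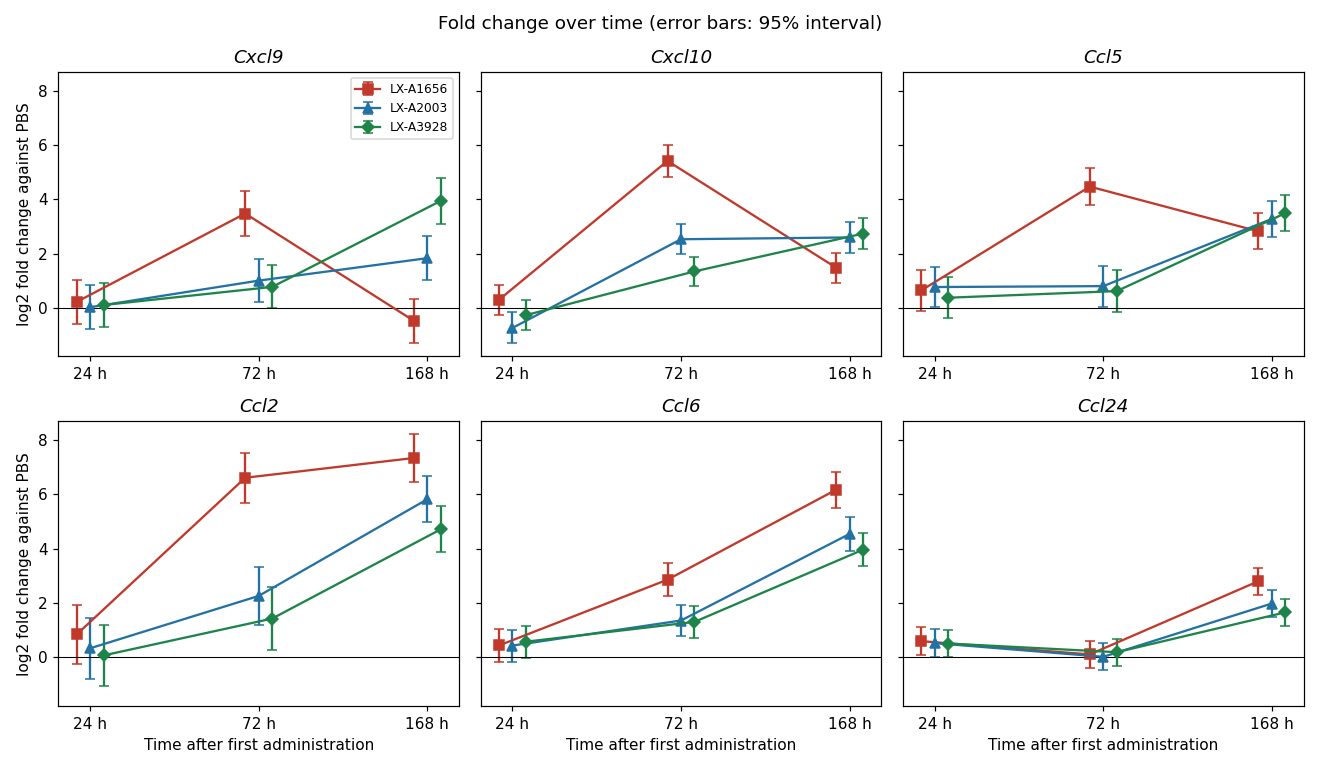
Log2 fold change against PBS at the same time (vertical axis, bars are 95% intervals) at 24 h, 72 h and 168 h (horizontal axis) for Cxcl9, Cxcl10, Ccl5, Ccl2, Ccl6 and Ccl24 with each of the 3 oligonucleotides. With LX-A1656 the lines of Cxcl9, Cxcl10 and Ccl5 come down after 72 h while those of Ccl6 and Ccl24 go up, and with LX-A2003 and LX-A3928 all 6 end higher at 168 h than at 72 h or, for Cxcl10 with LX-A2003, at about the same height.

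The 3 oligonucleotides were compared with each other at each time, 9 comparisons in all. Doses are not given, so whether they were matched is not known. At 24 h edgeR called 0 of 22 tested members in each of the 3 pairs, where 0.284% (LX-A2003 against LX-A1656), 2.9% (LX-A3928 against LX-A1656) and 0.15% (LX-A3928 against LX-A2003) of all genes were called. Unadjusted p was under 0.05 for 3, 2 and 1 members, and DESeq2 called 2, 0 and 0. A p that misses the threshold does not show that the oligonucleotides acted alike. For Cxcl1 at 24 h the log2 difference of LX-A2003 from LX-A1656 was 1.28 (95% interval 0.64 to 1.91, adjusted p = 0.0659) and that of LX-A3928 from LX-A2003 was -0.36 (95% interval -0.97 to 0.25, adjusted p = 1).

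At 72 h LX-A2003 had 13 members lower and 1 higher than LX-A1656 (18% of all genes lower and 18% higher), and LX-A3928 had 14 lower and 1 higher (20.1% and 20.4%). Cxcl12 was the higher member in both, by 0.69 ± 0.155 (adjusted p = 0.000398) and 0.94 ± 0.155 (adjusted p = 2.91e-06). Cxcl10 was lower by 2.88 ± 0.253 (adjusted p = 1.33e-12) and 4.07 ± 0.270 (adjusted p = 1.63e-16), and Ccl2 by 4.35 ± 0.361 (adjusted p = 3.83e-13) and 5.18 ± 0.388 (adjusted p = 1.12e-14). The Cxcl11 call of LX-A3928 against LX-A1656 was lost without replicate 2, 3 or 4 of LX-A1656 or replicate 1, 3 or 4 of LX-A3928 (adjusted p up to 0.159). The Ccl17 call of LX-A2003 against LX-A1656 was lost without replicate 1 of LX-A1656 or replicate 3 or 4 of LX-A2003 (adjusted p up to 0.240). LX-A3928 and LX-A2003 differed in 1 member, Cxcl10, where 0.718% of all genes were called. Cxcl10 was lower with LX-A3928 by 1.18 ± 0.249 (adjusted p = 0.00718), a call lost without replicate 3 of LX-A2003 (-1.05 (adjusted p = 0.0576)) or replicate 1 of LX-A3928 (-1.09 (adjusted p = 0.0545)). The difference of the same pair was -0.05 (95% interval -0.60 to 0.50, adjusted p = 0.986) for Ccl6 and 0.17 (95% interval -0.32 to 0.66, adjusted p = 0.918) for Ccl24. Scaling by library totals alone gave 1 higher and 15 lower in both comparisons with LX-A1656.

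At 168 h both comparisons with LX-A1656, which share its libraries, held members in both directions, the count of higher ones near the share of all genes. LX-A2003 had 4 higher, Cxcl9, Cxcl10, Ccl22 and Xcl1, and 10 lower, Ccl6, Ccl3, Ccl2, Ccl9, Cxcl17, Ccl24, Ccl17, Ccl25, Cxcl1 and Ccl7 (18.3% and 13.8% of all genes). Cxcl9 was higher with LX-A2003 by 2.30 ± 0.396 (adjusted p = 1.46e-05) and Cxcl10 by 1.11 ± 0.247 (adjusted p = 0.000462), while Ccl6 was lower by 1.63 ± 0.268 (adjusted p = 6.41e-06), Ccl2 by 1.52 ± 0.297 (adjusted p = 8.88e-05) and Ccl24 by 0.82 ± 0.225 (adjusted p = 0.00424). The calls of Cxcl1, Ccl7 and Ccl25 were lost when single libraries were left out (adjusted p up to 0.0701, 0.104 and 0.0533). Xcl1 with LX-A2003 held 0.0690, 0.186, 0.267 and 2.01 CPM, nearly all of it in replicate 4.

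LX-A3928 had 6 members higher than LX-A1656 at 168 h, Cxcl9, Cxcl10, Cxcl11, Ccl22, Xcl1 and Ccl5, and 8 lower, Ccl2, Ccl6, Ccl17, Ccl3, Ccl24, Ccl7, Cxcl17 and Ccl12 (23.2% and 18.5% of all genes). Without its replicate 3 there were 6 higher and 10 lower. Scaling by library totals alone gave 5 higher and 11 lower. Cxcl9 was higher by 4.41 ± 0.427 (adjusted p = 4.29e-11), and by 3.42 (adjusted p = 1.17e-11) without replicate 3. Cxcl10 was higher by 1.25 ± 0.247 (adjusted p = 5.88e-05) and Cxcl11 by 1.55 ± 0.405 (adjusted p = 0.00181). Ccl2 was lower by 2.63 ± 0.311 (adjusted p = 3.9e-09), Ccl24 by 1.15 ± 0.228 (adjusted p = 6.59e-05) and Ccl6 by 2.21 ± 0.274 (adjusted p = 1.11e-08), the last with a log2 difference of -2.85 (adjusted p = 1.68e-13) without replicate 3. The Ccl5 difference, 0.67 ± 0.259 (adjusted p = 0.0343), was lost without replicate 1, 3 or 4 of LX-A1656 or replicate 2 or 4 of LX-A3928, and that of Ccl12 without replicate 2, 3 or 4 of LX-A1656 or replicate 1, 2 or 4 of LX-A3928.

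LX-A3928 and LX-A2003 differed in 4 members at 168 h. Cxcl9 was higher with LX-A3928 and Ccl17, Ccl2 and Cxcl13 were lower (5.33% and 2.77% of all genes). Cxcl9 was higher by 2.11 ± 0.382 (adjusted p = 0.000428), and by 1.12 (adjusted p = 0.0328) without replicate 3. Ccl2 was lower by 1.11 ± 0.300 (adjusted p = 0.0168), a call lost without replicate 1 of LX-A3928 (-0.95 (adjusted p = 0.063)). The Ccl17 call was lost without replicate 3 of LX-A3928 (adjusted p = 0.0520), and the Cxcl13 call without any 1 of 7 single libraries (adjusted p up to 0.126). Ccl6 and Ccl24 were not called, at -0.58 (95% interval -1.11 to -0.05, adjusted p = 0.176) and -0.33 (95% interval -0.78 to 0.13, adjusted p = 0.42). Without replicate 3 of LX-A3928 both were lower, at -1.22 (adjusted p = 0.000484) and -0.88 (adjusted p = 0.00423), and 1 member was higher and 4 lower. Cxcl10 did not separate this pair, with a log2 difference of 0.14 (95% interval -0.35 to 0.63, adjusted p = 0.781). Scaling by library totals alone gave 1 higher and 5 lower, and with only the 8 libraries compared edgeR called 0.

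Whether the difference from PBS changed between times was tested directly. With LX-A1656 the difference grew more positive between 24 h and 72 h for 11 members and more negative for 1, Cxcl12 (14.2% and 16% of all genes). Of the 11, the calls of Ccl22, Ccl3 and Ccl7 were lost when single libraries were left out (adjusted p up to 0.106, 0.557 and 0.0667). Cxcl10 gained 5.11 ± 0.388 (adjusted p = 3.48e-14), Ccl5 gained 3.82 ± 0.517 (adjusted p = 1.27e-07) and the difference of Cxcl12 changed by -1.65 ± 0.218 (adjusted p = 7.47e-08) on the log2 scale. Between 72 h and 168 h it became more positive for Ccl6, Ccl24 and Cx3cl1, less negative for Cxcl12, and lower for Cxcl10, Cxcl9, Cxcl11 and Ccl5 (14% and 16.1% of all genes in the upward and downward direction). The Cxcl12 change, 0.62 (adjusted p = 0.0259), was lost without any 1 of 6 libraries, at most to 0.49 (adjusted p = 0.0908) without replicate 1 of LX-A1656 at 168 h, and the Cx3cl1 change was lost without replicate 4 of PBS at 72 h (1.72, adjusted p = 0.0565). Cxcl10 changed by -3.93 ± 0.389 (adjusted p = 6.31e-11), Ccl6 by 3.31 ± 0.404 (adjusted p = 1.67e-08) and Ccl24 by 2.69 ± 0.343 (adjusted p = 3.56e-08).

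With LX-A2003, 1 member's difference became more positive and 1 more negative from 24 h to 72 h (0.994% and 1.71% of all genes), Cxcl10 by 3.26 ± 0.391 (adjusted p = 1.93e-07) and Cxcl12 by -0.89 ± 0.216 (adjusted p = 0.0144). From 72 h to 168 h 6 became more positive and 1, Ccl25, more negative (15.9% and 13.8%), among the 6 Ccl6 by 3.19 ± 0.407 (adjusted p = 5.01e-08), Cxcl16 by 1.83 ± 0.251 (adjusted p = 1.92e-07) and Ccl24 by 1.96 ± 0.343 (adjusted p = 1.58e-05). With LX-A3928, 1 member's difference became more positive from 24 h to 72 h (1.26% of all genes called), Cxcl10 by 1.61 ± 0.385 (adjusted p = 0.0179), a call lost without replicate 2 of PBS at 72 h (1.51, adjusted p = 0.0530). From 72 h to 168 h 8 became more positive and 1, Cxcl12, more negative (12.5% and 10.5%), and with scaling by library totals alone 9 became more positive and 0 more negative. The Cxcl12 change, -0.67 (adjusted p = 0.0206), was lost without replicate 1 of PBS at 168 h (-0.52, adjusted p = 0.0785) or replicate 3 of LX-A3928 at 168 h (-0.49, adjusted p = 0.0526), and that of Cx3cl1 was lost without any 1 of 4 libraries (adjusted p up to 0.0928). Ccl6 gained 2.66 ± 0.405 (adjusted p = 3.14e-06), Cxcl9 3.17 ± 0.557 (adjusted p = 3.8e-05) and Ccl5 2.87 ± 0.522 (adjusted p = 4.99e-05), and without replicate 3 of LX-A3928 at 168 h Ccl6 gained 2.01 (adjusted p = 2.93e-06) and Cxcl9 2.18 (adjusted p = 0.00013). In PBS livers alone edgeR called 0 of 22 tested members at 72 h and 0 at 168 h against 24 h (0.0789% and 1.03% of all genes), with 1 and 2 members at an unadjusted p under 0.05 and 0 and 0 by DESeq2.

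The receptors of these ligands were read in the same libraries. Of 18 chemokine receptor genes, 8 were tested. At 24 h 0 of 8 were called with each oligonucleotide. At 72 h Ccr2, Cxcr4 and Ccr1 rose with LX-A1656, by 2.98, 2.21 and 3.47 on the log2 scale, and 0 of 8 were called with LX-A2003 or LX-A3928. At 168 h 4 rose and 2 fell after LX-A1656 (34.1% and 29.7% of all genes), 6 rose after LX-A2003 (29.8%) and 6 rose after LX-A3928 (27.3%). Ccr1, the receptor of Ccl6, Ccl9, Ccl3 and Ccl5, stood at 0.0573 CPM with PBS and at 16.5, 5.17 and 2.52 CPM after LX-A1656, LX-A2003 and LX-A3928. That PBS level rests on very few counts, so the size of the Ccr1 difference is uncertain. Cxcr4, the receptor of Cxcl12, stood at 1.09 CPM with PBS and at 18.2, 7.67 and 5.60 CPM. Ccr2 stood at 0.904 CPM with PBS and at 7.31, 9.36 and 9.92 CPM, so that its levels did not follow the order of Ccl2. Ccr3, the receptor of Ccl24, fell with LX-A1656 by 1.09 and rose with LX-A2003 and LX-A3928, at 3.76 CPM with PBS and 1.78, 7.31 and 7.66 CPM with the oligonucleotides. Ccl24 was highest with LX-A1656, where Ccr3 was lowest.

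Of 5 atypical receptors, which bind chemokines without G protein signalling, 4 were in the table and 3 were tested. At 168 h Ccrl2 and Ackr3 rose with each oligonucleotide. Ackr3, which scavenges Cxcl12 and Cxcl11, stood at 1.84 CPM with PBS and at 5.17, 4.30 and 6.80 CPM after LX-A1656, LX-A2003 and LX-A3928. Pf4, the platelet and macrophage chemokine Cxcl4 whose symbol falls outside the rule, stood at 2.34 CPM and at 25.2, 6.28 and 5.50 CPM, and rose with each. Of 19 NF-kB pathway genes 18 were in the table and 14 were tested. At 72 h 12 rose after LX-A1656, 2 rose and 1 fell after LX-A2003, and after LX-A3928 edgeR called 0. At 168 h 10, 9 and 7 rose after LX-A1656, LX-A2003 and LX-A3928, among them the inhibitor gene Tnfaip3, by 3.70, 2.40 and 1.92, and Vcam1, by 3.71, 2.85 and 2.39. Of 8 hepatocyte markers 6 were tested, and 5, 4 and 4 of them fell at 168 h (29.7%, 25.3% and 20.7% of all genes).

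**Figure D4:**
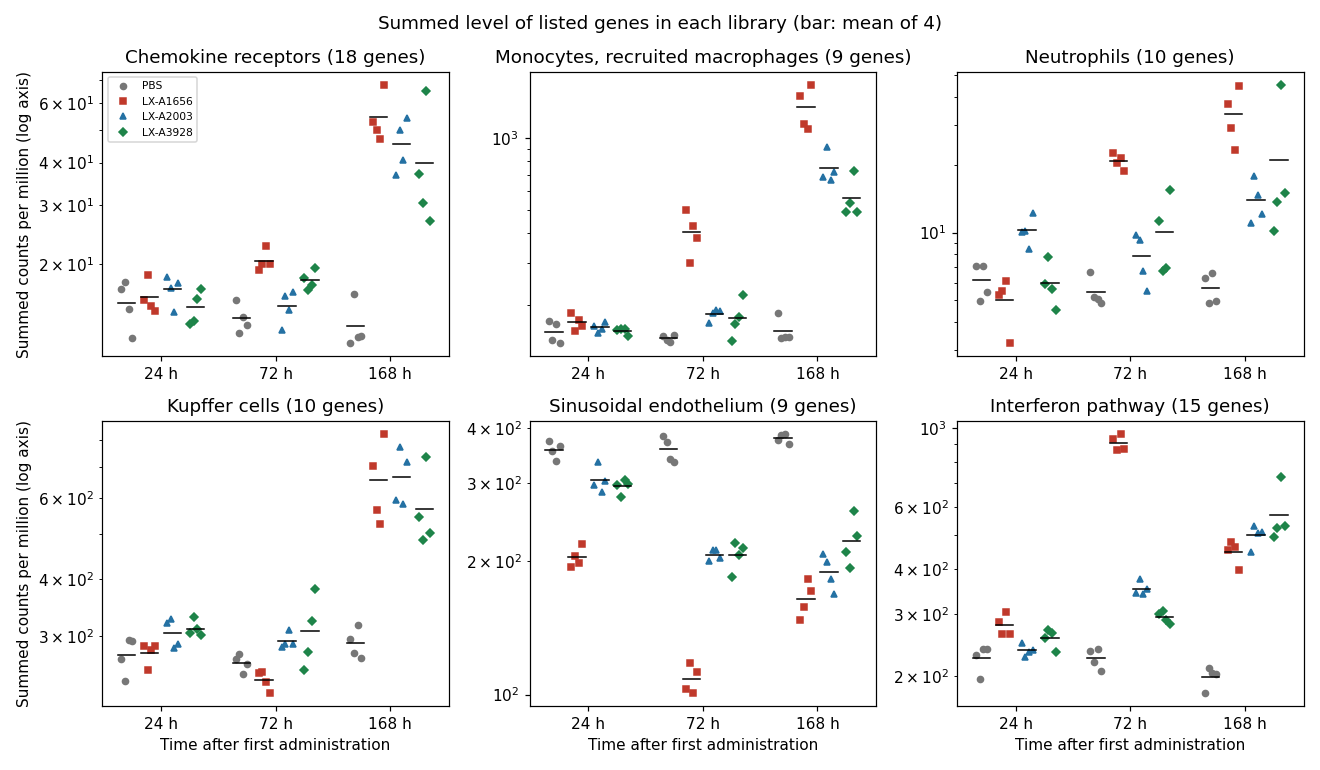
Summed CPM of 6 gene lists (chemokine receptors, monocyte and macrophage, neutrophil, Kupffer cell and sinusoidal endothelium markers, and interferon pathway genes) in each of the 48 libraries, by treatment and time, with a bar at the group mean. Monocyte and neutrophil sums are above PBS in all 3 treated groups at 168 h, and the endothelium sums are below PBS at 24 h, 72 h and 168 h.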

How the data were processed

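The authors deposited a table of counts, whole numbers for 23930 genes in 48 libraries and not normalized. Per the labels, tissue was disrupted with beads in TriPure and libraries were made with an Ion AmpliSeq mouse transcriptome kit. The aligner, the counting tool, the strand and the genome build count as not given in the sources used here. From the counts, filterByExpr (minimum count 10) on the 12 groups kept 12672 genes, TMM factors scaled the libraries, and edgeR 4.0.16 in R 4.3.3 (with limma 3.58.1) fitted 12 group means to all 48 libraries with its robust quasi-likelihood method (36 residual degrees of freedom) and F test. The 26 comparisons were adjusted over all genes tested by the Benjamini-Hochberg method. Values in every library are given for the 10 members called with a log2 fold change past 1 in either direction in a comparison with PBS and with at least 10 CPM in a group. Where a group held 0 counts, a fold is a bound against 3 counts over the group. With 1 to 3 counts, the ratio has an exact Clopper-Pearson 95% interval. Such intervals and bounds hold counting error alone, because the PCR reads carried no molecular identifiers and 1 molecule can give many. Alternatives were scaling by library totals alone, no filter on low counts, only the libraries compared, a replicate block, DESeq2 1.42.0 and leaving out each library. The procedure was run on simulated data in which a small set of genes, well covered in PBS livers, changed equally up and down. That run does not cover changes in most genes or members near 0 counts with PBS. Tables and figures were made with Python 3.11.15, pandas 2.3.3 and matplotlib 3.10.9. The rule for members reads symbols alone, but it and the lists were chosen with earlier results of these data known. Same-numbered replicates were not shown to be paired, so the comparisons carry no block.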

Additional observations from a re-analysis of the deposited data

Results flagged for a closer look

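In each group of 4 libraries of the members described in full, the gap of the highest or lowest library to the nearest other was set against the range of the group (Dixon's test at the 95% level). Of 114 groups checked, 8 held a library past it, and chance alone passes about 1 in 20. In LX-A3928 at 168 h, replicate 3 was the highest library for Ccl2 at 46.7 CPM, for Ccl24 at 58.9 CPM and for Ccl6 at 415 CPM. Ccl24 was lowest at 9.09 CPM in replicate 1 of LX-A2003 at 72 h. Ccl5 was highest at 2.19 CPM in replicate 1 of LX-A1656 at 24 h. Cxcl10 was highest at 35.5 CPM in replicate 3 of LX-A2003 at 168 h. Cxcl12 was highest at 54.3 CPM in replicate 2 of LX-A1656 at 72 h. Cxcl9 was highest at 22.4 CPM in replicate 1 of PBS at 168 h.

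The difference from PBS on the log2 scale also changed between times by the edgeR test of the difference. For LX-A1656 between 24 h and 72 h it changed by 5.11 for Cxcl10, 3.82 for Ccl5 and -1.65 for Cxcl12. For LX-A1656 between 72 h and 168 h it changed by -3.93 for Cxcl10, 3.31 for Ccl6 and 2.69 for Ccl24. For LX-A2003 it changed by 3.26 for Cxcl10 and -0.89 for Cxcl12 between 24 h and 72 h, and by 3.19 for Ccl6, 1.96 for Ccl24 and 1.83 for Cxcl16 between 72 h and 168 h. For LX-A3928 it changed by 1.61 for Cxcl10 between 24 h and 72 h, and by 3.17 for Cxcl9, 2.87 for Ccl5 and 2.66 for Ccl6 between 72 h and 168 h. Without replicate 3 of LX-A3928 at 168 h the Cxcl9 and Ccl6 changes were 2.18 and 2.01.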

How the results depend on the processing

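The 10 members described in full gave 45 called differences from PBS. Leaving out 1 library kept direction and call in 359 of 360 refits, the exception being Cxcl1 with LX-A2003 at 24 h (1.17, adjusted p = 0.0557), and all 225 refits under the other settings kept both. These members were chosen for a called change past 1 on the log2 scale and for at least 10 CPM, which favours stable calls. Among the detected members outside the 10, Ccl9, Ccl12, Ccl17 and Cx3cl1 each lost a call against PBS in some refits, as given with each above. Counts of members called moved by over 1.5 times as follows. With only the libraries compared, 2 were called for LX-A2003 and 2 for LX-A3928 against PBS at 24 h, 1 for LX-A3928 against LX-A1656 at 24 h, 0 for LX-A3928 against LX-A2003 at 168 h, and 4 and 2 for the change of the LX-A2003 and LX-A3928 differences between 24 h and 72 h. DESeq2 called 1 for LX-A3928 against PBS and 2 for LX-A2003 against LX-A1656 at 24 h. Leaving out 1 library gave 0 to 1 for LX-A2003 against PBS at 24 h, 0 to 1 for LX-A2003 against LX-A1656 at 24 h, 0 to 1 for LX-A3928 against LX-A2003 at 72 h, 2 to 6 for that pair at 168 h, and 0 to 1 for the change of the LX-A3928 difference between 24 h and 72 h. Against PBS it gave 15 to 16, 5 and 4 at 72 h and 15 to 17, 18 to 19 and 14 to 17 at 168 h for LX-A1656, LX-A2003 and LX-A3928. The cause of these moves was not tested. With the replicate number as a block, 16 members were called for LX-A1656 against PBS at 72 h and 17, 19 and 17 at 168 h for LX-A1656, LX-A2003 and LX-A3928, and no count moved by over 1.5 times. Deviations of same-numbered libraries correlated from -0.658 to 0.435 (median -0.00799), every pair was over 0.1 in 0 of 18 comparisons, and 20 of 72 libraries matched their own number best, so no pairing was shown. The number of detected members, 21, depends on the limit of 1 CPM. Cxcl17, Ccl22 and Ccl12 passed it at 1.23, 1.58 and 1.91 CPM in their highest group. Xcl1, Ccl28, Ccl20, Ccl4, Cxcl5 and Cxcl2 missed it at 0.820, 0.779, 0.747, 0.650, 0.614 and 0.513 CPM. A higher or lower limit would therefore give another number. Members under 1 CPM rest on few counts. Where a group held 3 counts or fewer, edgeR still fitted a fold for its test. That fold can move much with 1 library, so a bound or ratio is given for the size of the difference.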
